A study of Mus musculus with 4 samples.

Results

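The liver secretes most of the proteins that carry fat and cholesterol in blood, and 10 genes of that system were followed: the apolipoprotein genes Apoa1, Apoa2, Apoa4, Apoa5, Apob, Apoc3 and Apoe, the assembly gene Mttp, and the remodelling and uptake genes Lcat and Scarb1. They were chosen by name as genes of lipoprotein structure, assembly and remodelling. Their RefSeq accessions matched 14 of the 39429 non-control probes of the array, and the 10 genes stood among 17406 genes or other features that were tested. Liver RNA was taken from 2 wild type mice and from 2 mice lacking the Cyp3a cluster (Cyp3a-/-), which encodes drug- and steroid-oxidising cytochrome P450 enzymes. Each liver was hybridised to its own 1-colour Agilent array, so n = 2 per genotype throughout. The comparison asks which liver transcripts differ when that cluster is missing. The mice are described as different animals in independent experiments. With 1 array per animal, the p-values cannot separate animal differences from those of labelling, hybridisation or experiment. Slide differences enter the Cyp3a-/- pair only, because both wild type arrays shared slide 1. In the reported fit limma also combined each feature's spread with that of all features, at 3.54 prior and 2 residual degrees of freedom. Sex, age, strain, diet and feeding state are not given in the sources used here.

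Lipoproteins are particles of lipid held together by apolipoproteins. In hepatocytes, microsomal triglyceride transfer protein (Mttp) loads lipid onto apolipoprotein B as it enters the endoplasmic reticulum, and the particle leaves the cell as very low density lipoprotein. High density lipoprotein forms around apolipoprotein A-I outside the cell, is filled with cholesterol esters by lecithin-cholesterol acyltransferase (Lcat), and returns them to the liver through scavenger receptor B1 (Scarb1). The smaller apolipoproteins set how fast triglyceride is removed from the circulating particles.

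None of the 10 genes passed the threshold of an adjusted p of 0.05 in limma's test across all features (0 of 10), where 0.276% of all features did. At limma's unadjusted p under 0.05 there was 1 of 10, Apoa5, on the lower side, where 5.42% of all features stood, and none on the higher side (0 of 10, beside 4.6%). The median log2 fold change of the 10 genes, Cyp3a-/- minus wild type, was 0.04, beside 0.01 for all features. Single genes lay between -0.58 for Apoa5 and 0.26 for Scarb1. Apoa5 and Apoa4 were lower in both Cyp3a-/- livers than in both wild type livers and Scarb1 was higher, while the genotypes overlapped for the other 7. These counts of 2 lower and 1 higher compare with 20.2% of all features lower in both Cyp3a-/- livers and 22.5% higher, or 42.8% in either direction. For 9 of the 10 genes the 95% interval of the difference lay within a 2-fold change either way, which held for 74.7% of all features. The interval of Apoa5 alone reached past it, to -1.01.

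**Figure D1:**
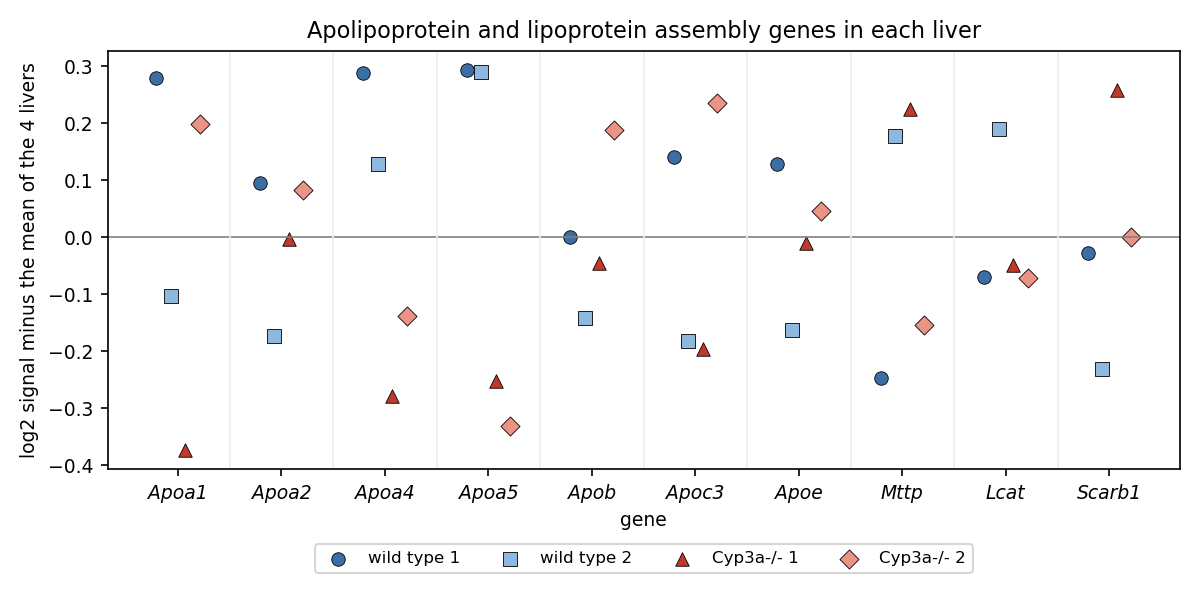
Signal of each of the 10 genes in each liver, as the log2 signal minus that gene's mean over the 4 livers (vertical axis); circles and squares are the wild type livers, triangles and diamonds the Cyp3a-/- livers. Both Cyp3a-/- livers lie below both wild type livers for Apoa4 and Apoa5 and above them for Scarb1, and for the other 7 genes the genotypes overlap.

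The labels were checked on Cyp3a11, the main Cyp3a transcript of mouse liver, whose log2 signal was 8.01 ± 0.11 (SD) in wild type and -6.96 ± 0.04 in Cyp3a-/- livers, where its probe did not clear the background on any array (0 of 2). Signals here and below are log2 processed intensity relative to the array's 75th percentile, so they compare livers for one probe and not one gene with another. The share of probes well above background ran from 54.4% to 56.4%. All 8 hepatocyte markers were measured (Alb and Ttr among them), and their summed level ranged from 3675 to 4099 in wild type and from 3608 to 4062 in Cyp3a-/- livers, relative to the 75th percentile. By genotype difference 5 of the 8 lay above 0 and 3 below. Fgb, the lowest, read 8.95 and 8.98 in wild type, 7.13 in Cyp3a-/- 1 and 8.98 in Cyp3a-/- 2. Both wild type arrays shared slide 1, Cyp3a-/- 1 lay on slide 2 and Cyp3a-/- 2 on slide 3, so that slide and genotype cannot be told apart except through the spread between slides 2 and 3. Over all features the correlation was 0.992 between the wild type arrays, 0.988 between the Cyp3a-/- arrays and 0.977 to 0.987 across genotypes. The median absolute log2 difference was nonetheless smaller between Cyp3a-/- 2 and wild type 1 (0.21) than between the Cyp3a-/- arrays (0.25). In bulk liver, fewer cells of a type and less RNA per cell cannot be told apart.

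Apoa5 and Apoa4 stood lowest of the 10 genes in the genotype comparison. Apolipoprotein A-V is made almost only in the liver and promotes the removal of triglyceride from plasma. The Apoa5 probe read 3.25 in both wild type livers, 2.71 in Cyp3a-/- 1 and 2.63 in Cyp3a-/- 2. The wild type livers thus differed by less than 0.01 and the Cyp3a-/- livers by 0.08, while the genotypes were 0.58 apart. The log2 fold change was -0.58 ± 0.17 (SE; 95% interval -1.01 to -0.15), with wild type 1.499 times the Cyp3a-/- level. Limma gave an unadjusted p of 0.016 and an adjusted p of 0.37, so the difference did not pass the threshold although it was larger than the spread between livers of a genotype. With slide as a random block the adjusted p was 0.74.

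Apolipoprotein A-IV, which rides on triglyceride-rich particles and is made in the intestine and the liver, gave a similar but smaller difference. Apoa4 read 0.43 and 0.27 in the wild type livers and -0.14 and 0.00 in the Cyp3a-/- livers. The gap between the lower wild type and the higher Cyp3a-/- liver was wider than the gap within either genotype. Its log2 fold change was -0.42 ± 0.18 (95% interval -0.87 to 0.04; limma adjusted p = 0.54, or 0.89 with slide as a random block). Both genes kept their negative sign in every alternative that was run, including each fit without 1 of the livers, and neither passed the threshold in any.

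Apoa1, Apoc3, Apoa4 and Apoa5 lie next to each other on chromosome 9, in that order in the GRCm38.p6 annotation. Apolipoprotein A-I is the main protein of high density lipoprotein, and apolipoprotein C-III slows the removal of triglyceride-rich particles. Apoa1 read 7.75 and 7.37 in the wild type livers and 7.10 and 7.67 in the Cyp3a-/- livers. Cyp3a-/- 1 was the lowest and Cyp3a-/- 2 lay between the wild type livers, so the genotypes overlapped. The difference was -0.18 ± 0.27 (95% interval -0.84 to 0.49; limma adjusted p = 0.85), and it stood at 0.11 without Cyp3a-/- 1 and at -0.46 without Cyp3a-/- 2. Apoc3 read 8.71 and 8.38 in wild type and 8.37 and 8.80 in Cyp3a-/- livers, with a difference of 0.04 ± 0.24 (95% interval -0.55 to 0.63; limma adjusted p = 0.97). For Apoc3 as for Apoa1, wild type 1 and Cyp3a-/- 2 were the high livers and wild type 2 and Cyp3a-/- 1 the low ones. A second Apoc3 probe, to another transcript accession, read -0.27 and -0.33 in wild type and -0.59 and -0.36 in Cyp3a-/- livers. Both Cyp3a-/- livers were below both wild type livers there, by 0.18 ± 0.19 on average on the log2 scale (limma adjusted p = 0.78), so the probes differed in sign and neither passed the threshold. The flanking genes of the cluster were close to 0, with log2 fold changes of -0.04 for Sik3, 0.05 for Zpr1 and -0.04 for Bud13. Both Cyp3a-/- livers were thus lower at 2 of the 4 apolipoprotein genes of the cluster and at 0 of the 3 flanking genes measured, beside 20.2% of all features; whether the neighbours differ from each other in response was not tested.

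The 250 bases before the start of 3 of these neighbours are shown because Apoa4 and Apoa5 had the same order of genotypes and Apoa1 did not. They are RefSeq windows of GRCm38.p6, all on the plus strand: chr9:46228380-46228629 for Apoa1, chr9:46240594-46240843 for Apoa4 and chr9:46268358-46268607 for Apoa5. Capitals mark matches, on either strand, to the nuclear receptor hexamer AGGTCA, the core CAAAGTNCA of sites for HNF4A (a main activator of liver genes), the TATA box core TATAAA or the CCAAT box, of which the HNF4A form was chosen with these sequences in view.
Apoa1: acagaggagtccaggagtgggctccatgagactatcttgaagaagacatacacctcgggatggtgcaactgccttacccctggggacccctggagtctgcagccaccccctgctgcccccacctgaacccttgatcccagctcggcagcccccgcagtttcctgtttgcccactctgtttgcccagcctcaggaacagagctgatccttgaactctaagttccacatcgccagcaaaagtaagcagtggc
Apoa4: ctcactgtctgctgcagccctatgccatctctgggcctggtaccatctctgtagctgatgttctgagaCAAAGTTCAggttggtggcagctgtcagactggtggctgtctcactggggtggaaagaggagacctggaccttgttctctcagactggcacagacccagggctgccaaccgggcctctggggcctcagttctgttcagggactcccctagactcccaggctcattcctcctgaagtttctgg
Apoa5: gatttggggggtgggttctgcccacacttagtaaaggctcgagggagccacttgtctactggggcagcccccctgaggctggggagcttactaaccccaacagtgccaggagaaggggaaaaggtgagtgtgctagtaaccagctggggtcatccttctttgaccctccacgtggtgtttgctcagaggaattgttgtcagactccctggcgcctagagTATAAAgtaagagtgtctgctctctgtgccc
The Apoa4 window held 1 match to CAAAGTNCA, which 1.2% of 32536 windows of this length held. As that form was chosen with these sequences in view, the share does not measure how unusual the match is. The Apoa5 window held 1 match to TATAAA, which 12.3% of the windows held. The windows of Apoa2 and Apob, not shown, held 1 such match each, and their genotypes overlapped at the probe standing for the gene. None of these motifs was matched in the Apoa1 window, and AGGTCA (14.04% of windows) and CCAAT (33.8%) were matched in none of the 3 windows shown. These matches describe letters in these windows and say nothing of a factor's binding. Windows were listed for 8 of the 10 genes.

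**Figure D2:**
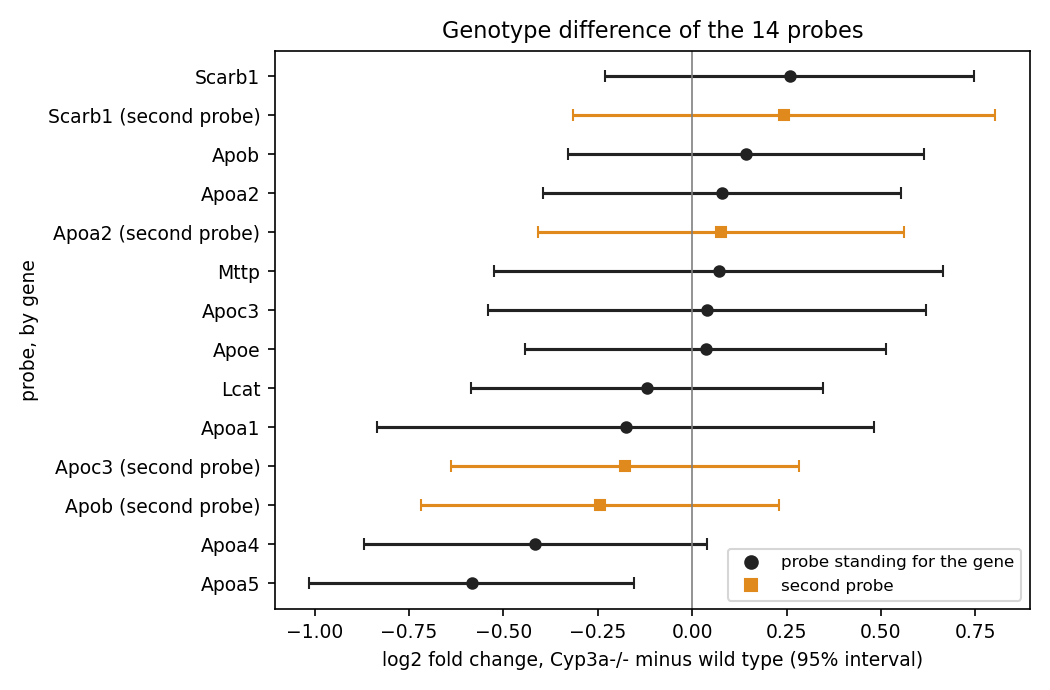
Log2 fold change, Cyp3a-/- minus wild type, of the 14 probes of the 10 genes (horizontal axis), with 95% intervals from limma's fit across all kept probes; black circles are the probes that stand for the gene and orange squares the second probes of Apoa2, Apob, Apoc3 and Scarb1. Only the interval of Apoa5 leaves out 0, before any adjustment for the number of probes, and the probes of Apob and of Apoc3 lie on opposite sides of 0.

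Among the genes of particle assembly, Apob and Mttp gave small differences. Apolipoprotein B is the scaffold of very low density lipoprotein. The probe standing for Apob read 7.47 and 7.33 in wild type and 7.42 and 7.66 in Cyp3a-/- livers, a difference of 0.14 ± 0.19 (95% interval -0.33 to 0.61; limma adjusted p = 0.83) that stood at 0.025 without Cyp3a-/- 2 and 0.26 without Cyp3a-/- 1. A second Apob probe, to the same RefSeq accession, read 6.47 and 6.20 in wild type and 6.06 and 6.13 in Cyp3a-/- livers, a difference of -0.24 ± 0.19. The probes thus disagreed in sign, with overlapping genotypes at the first and lower values in both Cyp3a-/- livers at the second. Neither passed the threshold in the fit over all probes, where 0.27% of probes did. Mttp read 3.01 and 3.43 in wild type and 3.48 and 3.10 in Cyp3a-/- livers. Wild type 2 and Cyp3a-/- 1 were the high livers, and the genotype difference of 0.07 ± 0.24 (95% interval -0.53 to 0.67) was smaller than the gap of 0.42 between the wild type livers.

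Of the genes of high density lipoprotein other than Apoa1, Apoa2 and Lcat gave small differences and Scarb1 the highest of the 10 genes. Apolipoprotein A-II is the second most abundant protein of the particle. Apoa2 read 9.80 and 9.53 in wild type and 9.70 and 9.78 in Cyp3a-/- livers, a difference of 0.08 ± 0.19 (95% interval -0.40 to 0.55), and its second probe gave 0.08 as well. Lcat read 3.56 and 3.82 in wild type and 3.58 and 3.56 in Cyp3a-/- livers. Wild type 2 alone was high, and the difference was -0.12 ± 0.19 (95% interval -0.59 to 0.35). Scarb1, the receptor that takes up cholesterol esters from the particle, read 3.45 and 3.25 in wild type and 3.74 and 3.48 in Cyp3a-/- livers. Both Cyp3a-/- livers were above both wild type livers at this probe, but Cyp3a-/- 2 exceeded wild type 1 by only 0.03. The difference was 0.26 ± 0.20 (95% interval -0.23 to 0.75; limma adjusted p = 0.69). It was 0.13 without Cyp3a-/- 1, 0.16 without wild type 2 and 0.17 without scaling between arrays. At the second Scarb1 probe the livers read 0.19 and 0.30 in wild type and 0.73 and 0.25 in Cyp3a-/-, so that the difference of 0.24 came with overlapping genotypes and rested on Cyp3a-/- 1. Scarb1 lies on chromosome 5, as the Cyp3a cluster does.

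Apolipoprotein E, the ligand by which liver receptors take up remnant particles, is made by hepatocytes and by macrophages. Apoe read 9.56 and 9.27 in wild type and 9.42 and 9.48 in Cyp3a-/- livers, a difference of 0.04 ± 0.19 (95% interval -0.44 to 0.52). The Cyp3a-/- livers lay between the wild type livers. Beside it, the summed level of 8 Kupffer cell and macrophage markers was 58.4 and 60.0 in wild type and 47.5 and 52.4 in Cyp3a-/- livers, and its part in the Apoe value was not tested. Of the neighbours of Apoe on chromosome 7, Apoc1 stood at 0.14, Apoc4 at 0.12, Apoc2 at -0.14, Tomm40 at 0.16, Clptm1 at -0.09 and Nectin2 at -0.57 (limma adjusted p = 0.49), as log2 fold changes.

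Apoa1 and Apoe were each printed as 10 spots per array, which gives the spread between spots of 1 array but not that of labelling, hybridisation or animals. For Apoa1 the SD between spots of 1 array was 0.04 to 0.06 on the log2 scale, after up to 2 spots per array were left out as outliers. The used Apoa1 spots of Cyp3a-/- 1 reached up to 7.19 and those of wild type 2 went down to 7.25, so that these livers did not overlap at any spot. The used spots of wild type 1 (7.68 to 7.81) and Cyp3a-/- 2 (7.58 to 7.74) did overlap. The Apoa1 means differed by 0.38 between the wild type livers and by 0.57 between the Cyp3a-/- livers. For Apoe the SD between spots was 0.14 to 0.17, and the spots of all 4 livers overlapped.

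**Figure D3:**
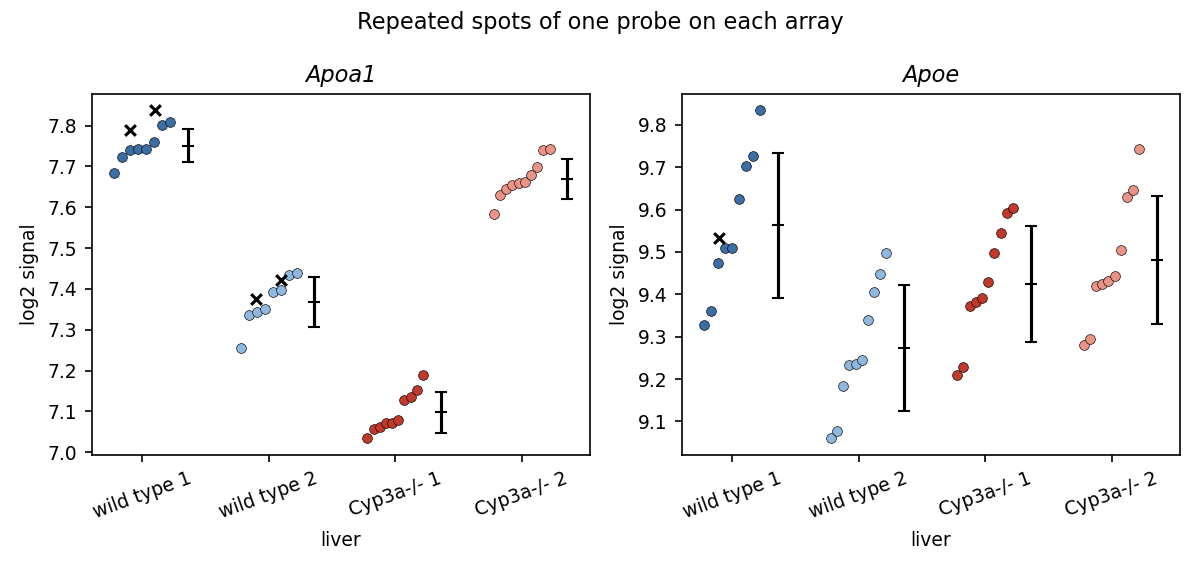
Log2 signal of the 10 spots of the Apoa1 probe (left) and the Apoe probe (right) in each liver; points are spots sorted by value, crosses are spots left out as outliers, and the bars at the right of each group give the mean and SD of the used spots. Apoa1 spots of Cyp3a-/- 1 lie lowest, those of wild type 2 lie next without overlap, wild type 1 and Cyp3a-/- 2 overlap, and Apoe spots of all 4 livers overlap. The vertical axes do not start at 0 and differ between the panels.

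The probes of Apoa2 and Apoe were among the brightest on the arrays. No spot was flagged as saturated (0 on each array). The probe standing for Apoa2 had processed intensities of 277218 and 259850 in wild type and 260554 and 271420 in Cyp3a-/- livers. The highest processed intensity on any array, 284614, was an Apoe spot of wild type 1, and on both Cyp3a-/- arrays the highest was this Apoa2 probe. Whether signal is compressed at this brightness was not tested. Before scaling, these values spanned a 1.07-fold range. After division by each array's 75th percentile, which was 352 on wild type 2 and 308 to 314 on the other arrays, the same values spanned 1.21-fold. For Apoe the range was 1.096-fold before and 1.22-fold after scaling. Wild type 2 was the lowest liver for Apoa2 and for Apoe after scaling. Without scaling between arrays, an alternative chosen after seeing the data, the log2 fold change was -0.01 for Apoa2, -0.06 for Apoe, -0.68 for Apoa5 and -0.51 for Apoa4, and that of all features had a median of -0.08.

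Among themselves, the 10 genes fell into several orders of the livers rather than one. Wild type 1 was the highest liver for 5 genes and wild type 2 for 1, and wild type 2 was the lowest for 4. Measured as the root mean square distance between centred profiles over the 4 arrays, the closest pair was Apoa2 and Apoe (0.03), the bright probes described above. Apoa1 and Apoc3 were 0.12 apart and Apoa4 and Apoa5 0.13. Outside the list, the genes with profiles most like that of Apoa5, the gene with the smallest p, were Rhbdf1 (0.02), Cgnl1 (0.02) and Sprn (0.03). Those most like Apoa1, the gene with the widest range over the 4 livers, were Srebf2 (0.01), Acox3 (0.01) and Lppos (0.02). With 4 arrays and 13094 named genes, close profiles are a description of these livers only.

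Other genes of lipoprotein metabolism, 75 in 5 lists, were read beside the 10. Of these, 73 were measured, and 0 passed the adjusted threshold in either direction. At limma's unadjusted p under 0.05, 3 were higher and 6 lower (4.11% and 8.22% of 73, beside 4.6% and 5.42% of all features), and their median log2 fold change was 0.02. The genes named for an unadjusted p under 0.05 without being picked by the naming rule (Sar1b, Angptl8, Vldlr and Ppara) were chosen after their values were seen.

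Of 12 other apolipoprotein genes measured, 0 passed at the adjusted or the unadjusted threshold, and their median log2 fold change was 0.11. Apoh, a plasma protein that binds phospholipids, read 7.61 and 7.57 in wild type and 8.04 and 7.96 in Cyp3a-/- livers, a difference of 0.41 ± 0.17 (limma adjusted p = 0.53). Both Cyp3a-/- livers lay above both wild type livers. Apom, which carries sphingosine-1-phosphate on high density lipoprotein, stood at -0.17 ± 0.17. With quantile normalization Apoh stood at 0.20 and Apom at -0.35.

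Of 17 measured genes of assembly and export, 2 were higher at the unadjusted threshold and 0 lower, with a median of 0.11. Tm6sf2, which helps to load lipid onto very low density lipoprotein, read 1.91 and 2.04 in wild type and 2.62 and 2.49 in Cyp3a-/- livers, a difference of 0.58 ± 0.18 (limma adjusted p = 0.39). Sar1b, the GTPase of the vesicles that carry nascent lipoproteins out of the endoplasmic reticulum, stood at 0.67 ± 0.23 (limma adjusted p = 0.43), or 0.44 without wild type 1. Cideb, a lipid droplet protein needed for large particles, stood at -0.31 ± 0.24, and at -0.032 without Cyp3a-/- 1 and -0.58 without Cyp3a-/- 2. Cyp3a-/- 1 read 5.76 and the other livers 6.31 to 6.36.

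Of 11 measured remodelling genes, 0 were higher and 2 lower at the unadjusted threshold, with a median of -0.16. Lpl, the lipase that releases fatty acids from circulating triglyceride, read 0.98 and 1.47 in wild type and 0.22 and -0.14 in Cyp3a-/- livers, a difference of -1.18 ± 0.25 (limma adjusted p = 0.25). Angptl8, a secreted regulator of that lipase, read 4.57 and 6.11 in wild type and 3.53 and 3.44 in Cyp3a-/- livers. Wild type 2 stood far above the others, and the difference of -1.85 ± 0.49 (limma adjusted p = 0.33) was -1.09 without that liver. Pon1, an enzyme carried on high density lipoprotein, read 5.77 and 5.80 in wild type and 5.98 and 6.29 in Cyp3a-/- livers, a difference of 0.34 ± 0.20 (limma adjusted p = 0.61), or 0.19 without Cyp3a-/- 2.

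Of 14 measured receptor genes, 1 was higher and 2 lower at the unadjusted threshold, with a median of -0.03. Cd36, which takes up fatty acids and oxidised lipoproteins, read -0.38 and -0.19 in wild type and -1.49 and -1.89 in Cyp3a-/- livers, a difference of -1.41 ± 0.21 (limma adjusted p = 0.14). Vldlr, the receptor for very low density lipoprotein, read -2.27 and -2.03 in wild type and -3.32 and -3.98 in Cyp3a-/- livers, a difference of -1.501 ± 0.27 (limma adjusted p = 0.20). With normexp background correction the Vldlr difference was -0.56 (limma adjusted p = 0.31). Cd36, Vldlr, Lpl and Angptl8 passed the threshold with median scaling. In that fit limma gave all features a common variance. A gene's own spread between livers therefore did not enter its test. Without Cyp3a-/- 1 the log2 fold change was -1.60 for Cd36 and -1.83 for Vldlr. Sdc1, a proteoglycan that binds remnant particles, stood at 0.56 ± 0.22, or 0.34 without Cyp3a-/- 2.

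Of 19 regulators of apolipoprotein genes, 0 were higher and 2 lower at the unadjusted threshold, with a median of -0.03. Nr0b2, a repressor of nuclear receptors, read 1.27 and 1.88 in wild type and 0.56 and 0.75 in Cyp3a-/- livers, a difference of -0.92 ± 0.26 (limma adjusted p = 0.34). Ppara, the fatty acid receptor that activates genes of fat oxidation, read 4.59 and 4.64 in wild type and 3.91 and 4.14 in Cyp3a-/- livers, a difference of -0.59 ± 0.18 (limma adjusted p = 0.39). Srebf1, a driver of fat synthesis, stood at 0.45 ± 0.36 and ran from 0.03 without Cyp3a-/- 2 to 0.87 without Cyp3a-/- 1.

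**Figure D4:**
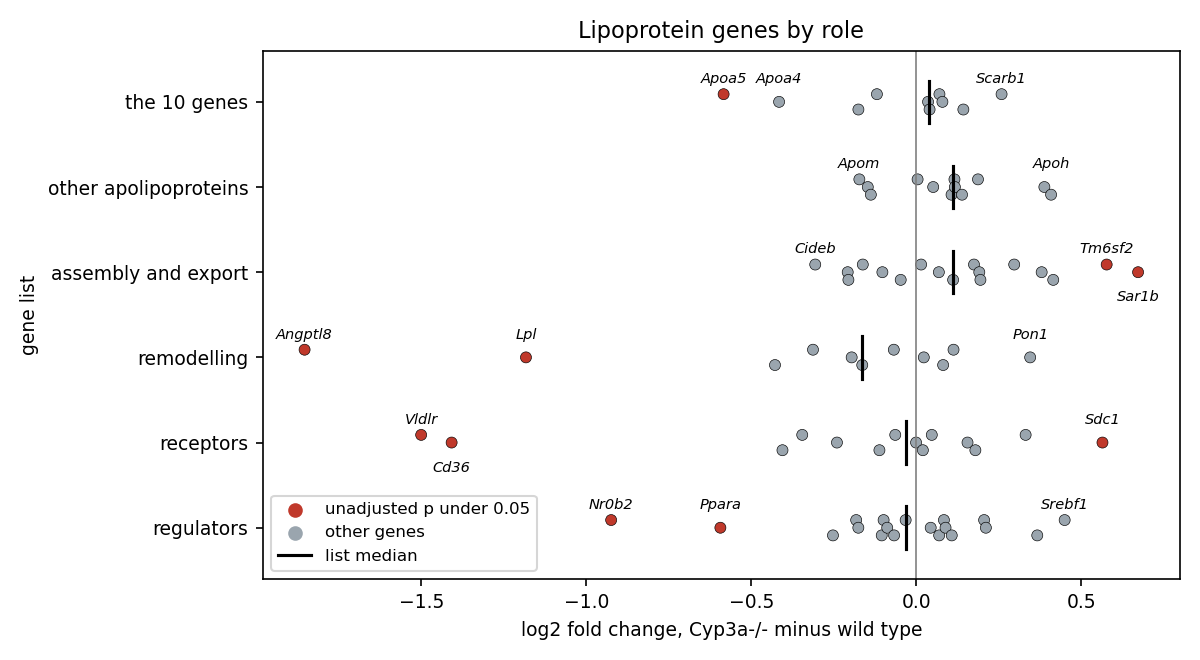
Log2 fold change, Cyp3a-/- minus wild type (horizontal axis), of the 10 genes and of the 5 lists of other lipoprotein genes; each point is a gene, red points have an unadjusted limma p under 0.05, and vertical bars are list medians. Apoa5 is the only red point of the 10 genes, and the lowest values are those of Angptl8, Vldlr, Cd36 and Lpl.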

How the data were processed

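The authors deposited 4 scanner files whose intensity values came from Agilent Feature Extraction 11.5.1.1, per the file headers and the submitters' processing notes; the processed intensity is background-subtracted within the array and not normalized between arrays. Flags of spots came with the files. A table of log2 values was deposited as well; it tracked log2 processed intensity minus the 75th percentile, centred per probe (r = 1.00 for each array), with column medians of 0.06, -0.07, -0.02 and 0.02. Its scale, centring and direction were inferred from this.

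Control spots and 113 to 148 outlier spots per array were left out, spots of a probe were averaged as log2 values, and the array's 75th percentile was subtracted. Probes well above background on both arrays of a genotype were kept (21508), and each gene is its brightest kept probe. All 14 probes of the 10 genes were well above background on all 4 arrays. Names came from RefSeq accessions matched to GRCm38.p6 (28025 probes with 1 symbol, 11404 without); the build behind the array's design is not given in the sources used here. The genotype test was limma's (version 3.58.1, R 4.3.3; lmFit, then eBayes; 2-sided, 2 residual and 3.54 prior degrees of freedom), with Benjamini-Hochberg adjustment over all features, after the test was tried on simulated data. Intervals are at the 95% level and rest on 4 arrays, whose number limits the precision. Other genes were named as the one with the smallest p in a list and the one with the largest change in the other direction; the flanking genes of both clusters were all named. Some genes of the lists are not reported here and were left out of their counts. Members and lists were chosen with earlier results of these data known. Alternatives tried were normexp (on the median signals, the column the scanner files used here hold; offset 50), quantile and median scaling, filters on dim probes, the probe rule, outlier spots, the deposited table, replicate and slide blocks, each liver left out and, chosen after seeing the data, no scaling between arrays and crossed replicate numbers. The slide block used a within-slide correlation of 0.36 that was computed separately, because limma returned none for 4 arrays. Its spread within a slide came from the wild type pair only and that between slides from the Cyp3a-/- pair only. A difference in spread between the genotypes therefore enters it and cannot be told apart from slide.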

Additional observations from a re-analysis of the deposited data

How the results depend on the processing

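None of the 10 genes passed the threshold in any of 16 alternatives (0 in each, beside 0 in the reported fit). Apoa4, Apoa5 and Scarb1 kept their sign in all 16. With quantile normalization the log2 fold change was 0.00 for Apoa2, -0.082 for Apob, -0.11 for Apoc3 and -0.027 for Apoe, and the median of the 10 genes was -0.10. With the mean over a gene's probes it was -0.050 for Apob and -0.069 for Apoc3. Without scaling between arrays it was -0.013 for Apoa2, -0.052 for Apoc3, -0.057 for Apoe and -0.022 for Mttp. Leaving out 1 liver moved Apoa1 between -0.46 and 0.11, Apoa2 between -0.056 and 0.21, Apoc3 between -0.18 and 0.26, Apoe between -0.11 and 0.18, Mttp between -0.14 and 0.28, Lcat between -0.25 and 0.011, Apob between 0.025 and 0.26, Scarb1 between 0.13 and 0.39, and the median between -0.083 and 0.10. The cause of these sign changes was not tested; each gene's values lie within the interval printed for it. All features called numbered 48, or 659 with median scaling, 13 without a filter on dim probes (more features tested), 9 with all 4 arrays required (fewer features tested), 102 without scaling and 7 to 564 with 1 liver left out: 8 without wild type 1, 7 without wild type 2, 202 without Cyp3a-/- 1 and 564 without Cyp3a-/- 2. Of the 73 other lipoprotein genes, 4 were called with median scaling (Lpl, Cd36, Vldlr and Angptl8). With median scaling limma gave all features a common variance, so a gene's own spread between livers did not enter its test. With the replicate number as a block (replicate block), 58 features and 0 of the 10 genes were called. The labels do not say that a number marks an experiment, and the differences of replicates 1 and 2 correlated at -0.10 between genotypes (2 pairs); with the numbers crossed, a choice made after seeing the data, 56 features were called.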

Other observations

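Genes that respond to PPARA, the fatty acid receptor, were read as context. All 15 lay below 0 in log2 fold change, where 8452 of all 17406 features did. Their median was -0.64, beside 0.01 for all features. At limma's adjusted threshold 0 passed, beside 0.276% of all features. At the unadjusted one 5 were lower, beside 5.42% of all features. The highest reading came from wild type 2 for 13 genes. Centred on each gene's mean, the median of the 15 was 0.08 in wild type 1, 0.76 in wild type 2, -0.18 in Cyp3a-/- 1 and -0.45 in Cyp3a-/- 2, whereas Apoa5 stood at 0.29 in both wild type livers.

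Markers of other cells were read as well. Hba-a1 and Hbb-bt, globin genes of red cells, stood at -1.07 and -0.81, and the summed level of 4 measured erythroid markers was 91.7 and 107 in wild type and 46.6 and 75.1 in Cyp3a-/- livers. The B cell marker Ms4a1 stood at -0.92 and the macrophage receptor Marco at -1.47. The Ms4a1 probe was dim, at -2.85 and -3.40 in wild type and -4.09 and -4.00 in Cyp3a-/- livers. Of these 4 genes, named after their values were seen, none passed the adjusted threshold (0 of 4), and their part in any value above was not tested. Among the 4 measured erythroid markers 1 lay above 0, Alas2 at 0.01. Among 6 lymphocyte and neutrophil markers 1 did, Cd3e at 0.06. Among 8 Kupffer cell and macrophage markers 2 did, Timd4 at 0.03 and Vsig4 at 0.16. The median log2 fold change was 0.09 for hepatocyte markers, -0.12 for Kupffer cell and macrophage markers, -0.16 for stellate cell markers, 0.05 for sinusoidal endothelium, -0.08 for cholangiocyte markers, -0.12 for lymphocyte and neutrophil markers and -0.55 for erythroid markers. Of 9 markers of adipose, pancreas and intestine 2 were measured, with Fabp2 at 0.01 and Cela1 at -0.17.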
